A study of Mus musculus with 24 samples.

Results

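The collagen genes of the mouse were followed in cultured organs of Corti. Members were all features of the deposited gene table whose Entrez identifier belongs to a symbol of the form Col, number, a, number, such as Col2a1. The rule found 44 genes of the 24454 in the table, and no measured value entered it. Explants of the organ of Corti, the sensory epithelium of the cochlea, came from C57BL/6N mice of both sexes on postnatal day 5. All explants, controls included, were first cultured for 24 h and then kept for 6 or 24 h under 1 of 4 treatments. The control (CTRL) received no drug, and the gentamicin group (GM) received 50 µM of this aminoglycoside antibiotic, which is toxic to hair cells. The pioglitazone group (PIO) received 10 µM of this agonist of the nuclear receptor PPAR-γ, and the combined group (PIO+GM) received both drugs at these doses. Each of the 8 groups of treatment and time held 3 libraries, each from 6 pooled explants, so that p-values measure the spread between such pools. The purpose of the series was to find which transcripts move when pioglitazone is given with or without gentamicin.

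Collagens are made of 3 polypeptide chains wound into a triple helix, and each chain has its own gene. Fibrillar collagens (types I, III, V and XXIV here) form the cables of connective tissue. Type II and XI fibrils with type IX on their surface are typical of cartilage, and in the cochlea they are also known from the tectorial membrane, the extracellular sheet above the hair cells. Type IV collagen forms the network of basement membranes in 3 kinds of trimer, of which one combines the chains of Col4a3, Col4a4 and Col4a5. Mutations in these last genes cause Alport syndrome, in which kidney disease is joined by hearing loss. The 44 genes comprised 7 fibrillar, 8 cartilage-type, 8 basement membrane, 6 beaded filament (type VI), 6 fibril-associated, 4 transmembrane and 5 other collagens.

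Chains of type IV are encoded in pairs that lie head to head and are transcribed in opposite directions from a short shared region. The windows below are shown because these pairs gave the most and the least stable ratio among the type IV chains described further on. Each is the reference sequence of GRCm38.p6 (RefSeq) from 250 bases before to 50 bases after a start site, 5′ to 3′ on the strand of the gene named. The window of Col4a4 lies at chr1:82586800-82587099 on the minus strand, around a start site at 82586849. Capitals mark the 71 bases between this start site and the start of Col4a3. The annotated Col4a4 gene reaches 82587034 and includes these bases. The windows of Col4a1 (chr8:11312777-11313076, minus strand) and Col4a2 (chr8:11312555-11312854, plus strand) overlap, and capitals mark the 78 bases they share, each read on its own strand.
Col4a4: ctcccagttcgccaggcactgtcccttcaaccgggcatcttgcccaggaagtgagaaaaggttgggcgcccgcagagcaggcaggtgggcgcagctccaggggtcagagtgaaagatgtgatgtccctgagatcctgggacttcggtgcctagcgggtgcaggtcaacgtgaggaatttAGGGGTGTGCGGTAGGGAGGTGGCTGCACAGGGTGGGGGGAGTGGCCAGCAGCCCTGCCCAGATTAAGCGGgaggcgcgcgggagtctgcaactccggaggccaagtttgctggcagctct
Col4a1: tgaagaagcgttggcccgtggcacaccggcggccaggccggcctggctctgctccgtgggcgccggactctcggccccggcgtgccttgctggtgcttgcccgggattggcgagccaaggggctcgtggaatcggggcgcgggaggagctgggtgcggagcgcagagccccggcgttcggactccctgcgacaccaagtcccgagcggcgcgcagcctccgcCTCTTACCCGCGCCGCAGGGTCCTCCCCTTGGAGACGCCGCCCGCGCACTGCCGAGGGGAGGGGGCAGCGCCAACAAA
Col4a2: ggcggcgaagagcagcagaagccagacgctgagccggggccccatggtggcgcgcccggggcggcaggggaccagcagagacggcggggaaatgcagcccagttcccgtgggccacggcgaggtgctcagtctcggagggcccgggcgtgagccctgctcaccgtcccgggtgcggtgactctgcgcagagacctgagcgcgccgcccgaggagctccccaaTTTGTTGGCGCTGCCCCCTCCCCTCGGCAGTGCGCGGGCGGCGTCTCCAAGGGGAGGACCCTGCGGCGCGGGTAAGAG
These windows held 63.3%, 74.0% and 73.7% G and C. The annotated genes themselves overlapped by 114 bases for Col4a3 with Col4a4 and by 85 bases for Col4a1 with Col4a2, and reads from an overlap cannot be assigned if the counting ignored strand. RefSeq windows were at hand for 35 of the 44 genes, 38 windows in all. The letters GGGCGG, searched on both strands, occurred in 23 of these 38 windows (60.5%) against 35.7% of all 32851 windows of the same length. CCAAT occurred in 13 (34.2%, all windows 37.4%) and TATAAA in 5 (13.2%, all windows 13.6%). The direct repeat of AGGTCA with 1 base of any kind between the copies, typical of PPAR sites, occurred in 0 of the 38 and in 0.0396% of all windows. These are matches of letters in a short window and not evidence of binding.

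The 24 libraries held 7211357 to 15548856 counts (median 12538495). Explants are mixed tissue, so that fewer cells of a type and less RNA per cell cannot be told apart. Supporting cell markers summed to 4009 to 10940 CPM (counts scaled to a common library total) and hair cell markers to 485 to 998 CPM, so both main cell types of the organ were present. By medians over the 24 libraries, most of the supporting cell sum (8164 CPM) came from the tectorial membrane genes Tectb (4582) and Tecta (1796 CPM). Markers of bone, mesenchyme and macrophages were also present and varied between libraries, and their sums are given beside results below. In 3 libraries treated with pioglitazone for 6 h, genes of 55% GC or more lay below genes under 45% GC by 0.78 to 1.07 on the log2 scale relative to the mean of all libraries. These were PIO replicate 2 and PIO+GM replicates 2 and 3, and the same difference ran from -0.11 to 0.49 in the other 21 libraries. Collagen transcripts are rich in G and C (median 55.1% over the 44 genes, 48.8% over all genes), so calls at 6 h are given with and without these libraries. Leaving them out left 2 libraries of PIO and 1 of PIO+GM at 6 h, and the 1 remaining library was assumed to vary like those of the other groups. Where a call was lost there, the smaller number of libraries and the GC shift cannot be told apart.

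Of the collagens only Col2a1 was among the 10 genes with the most counts (mean 5592 CPM), and the cartilage types led the class totals. Counts on the 44 genes made up 0.982% to 2.88% of all counts in a library (median 2.01%). Cartilage-type collagens alone took a median of 1.35% of all counts, fibrillar collagens 0.322% and basement membrane collagens 0.218%. The mean share was 2.24% ± 0.344 (SD, n = 3) in CTRL at 6 h and 1.70% ± 0.835 in PIO at 6 h, with GM at 2.07% ± 0.576 and PIO+GM at 1.48% ± 0.554. The GC-shifted libraries had the lowest shares of all 24: 0.982% in PIO replicate 2, and 1.26% and 1.07% in PIO+GM replicates 2 and 3. At 6 h PIO replicates 1 and 3 had 1.505% and 2.62%, and PIO+GM replicate 1 had 2.11%. At 24 h the mean share was 2.34% ± 0.285 in CTRL, 2.45% ± 0.450 in GM, 1.98% ± 0.147 in PIO and 1.73% ± 0.202 in PIO+GM. The highest share among the 3 PIO+GM libraries at 24 h (1.97%) lay just below the lowest of the GM libraries (1.98%), while at 6 h all 4 groups overlapped.

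**Figure D1:**
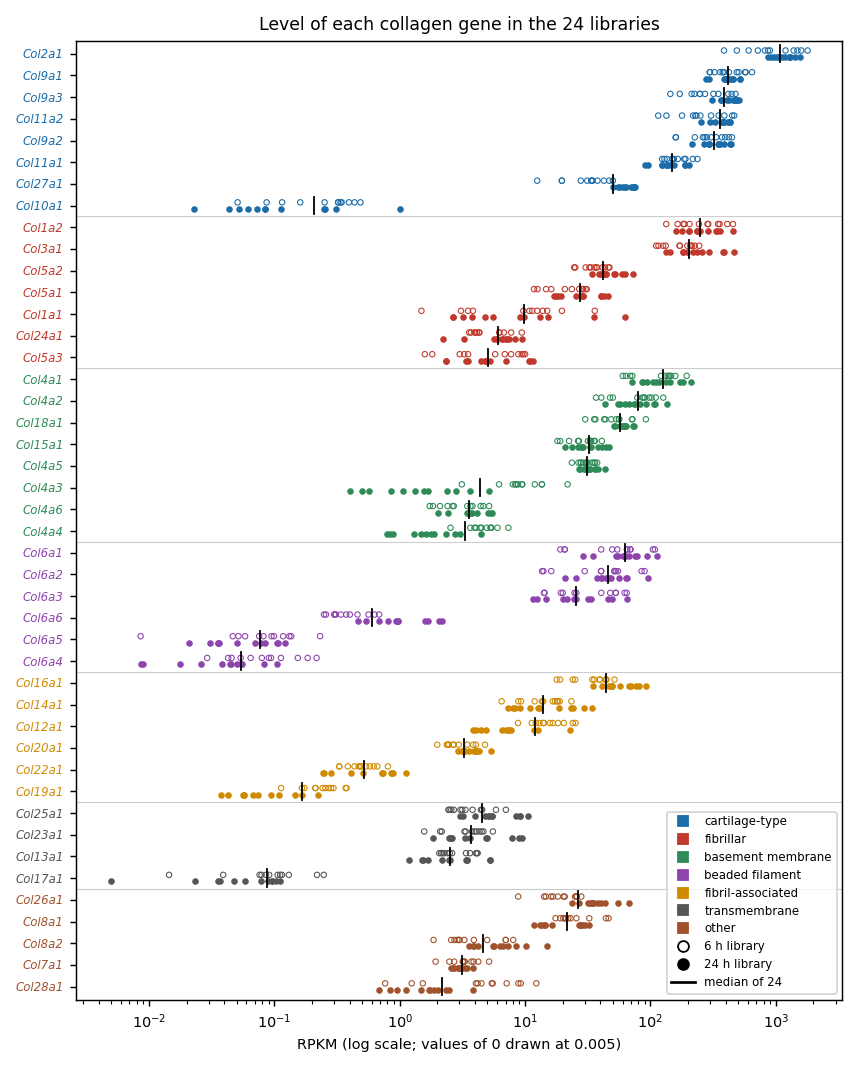
Level of each of the 44 collagen genes in the 24 libraries, grouped by class. Each point is 1 library, the horizontal axis is RPKM (CPM per kilobase of transcript, log scale), open points are 6 h and filled points 24 h, and bars are medians of 24. Col2a1 with a median of 1078 RPKM stands at the top of the range and Col6a4 with 0.0542 at the bottom.

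Between genes, levels were compared only as RPKM, which divides by transcript length. Col2a1 (Entrez 12824, chr15:97975602-98004724), the single chain of type II collagen, had a median of 1078 RPKM over the 24 libraries, between 386 and 1794. Type IX chains Col9a1 (414.5) and Col9a3 (387 RPKM) followed, then Col11a2 at 358, the type IX chain Col9a2 at 320 and, further down, Col11a1 at 149 RPKM. These neighbours overlapped in their ranges over libraries, and only Col2a1 stood clear of the rest in its median. Col27a1, a fibrillar collagen of cartilage, had a median of 50.3 RPKM, whereas Col10a1, the collagen of hypertrophic cartilage, had 0.206. Of the cartilage markers, Cnmd had a median of 378 CPM and Acan of 116 CPM, and Comp (0.525), Snorc (0.242) and Matn3 (0.247 CPM) were near 0. Tectb and Tecta, which encode proteins of the tectorial membrane, had medians of 4582 and 1796 CPM.

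Among the fibrillar collagens, Col1a2 (247 RPKM) and Col3a1 (203 RPKM) led, followed by Col5a2 (41.6), Col5a1 (27.4), Col1a1 (9.79), Col24a1 (6.11) and Col5a3 (5.07). In the basement membrane class the chains found in most tissues were highest, Col4a1 at 126 and Col4a2 at 80.3 RPKM. Col18a1 and Col15a1, which attach basement membranes to the matrix and carry heparan and chondroitin sulfate chains, had 57.5 and 32.3 RPKM. Col4a5 had 31.25 RPKM, and the chains of restricted tissues, Col4a3, Col4a4 and Col4a6, had 4.40, 3.34 and 3.605 RPKM. Type VI, which forms beaded filaments around cells, was represented by Col6a1 (62.7), Col6a2 (45.6) and Col6a3 (25.7 RPKM), and Col6a4, Col6a5 and Col6a6 had medians below 1 RPKM.

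Of the fibril-associated collagens, which decorate fibrils, Col16a1 had 44.5 RPKM, Col14a1 13.8, Col12a1 12.0, Col20a1 3.27, Col22a1 0.523 and Col19a1 0.166. The transmembrane collagens were low, with Col25a1 at 4.505, Col23a1 at 3.72 and Col13a1 at 2.51 RPKM. Col17a1, a hemidesmosome protein of epidermis, had 0 to 13 counts per library and was the 1 member that did not pass the filter on low counts. The remaining 5 genes were Col26a1 (26.5), Col8a1 (21.7), Col8a2 (4.60), Col7a1 (3.17) and Col28a1 (2.17 RPKM). In all, 9 members had a median of at least 100 RPKM, 24 of at least 10 and 7 below 1.

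Chains that assemble into the same trimer did not all keep a fixed ratio, and the ratios below are descriptions over libraries without a test. Col4a1 to Col4a2 was the steadiest, with a median RPKM ratio of 1.54 and a range of 1.37 to 1.67, a 1.22-fold span over 24 libraries. Col6a1 to Col6a2 spanned 1.161 to 1.51. Col4a5 to Col4a6, by contrast, ran from 5.57 to 15.3 and Col5a1 to Col5a2 from 0.413 to 0.858. Some extremes were those of GC-shifted libraries at 6 h. PIO replicate 2 had the highest Col6a1 to Col6a2 and the lowest Col5a1 to Col5a2 ratio. PIO+GM replicates 2 and 3 had the highest Col4a5 to Col4a6 ratios (15.34 and 15.07).

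Col1a1 to Col1a2 was the most variable ratio. Type I collagen is usually built from 2 chains of Col1a1 for each chain of Col1a2, yet the median ratio of RPKM here was 0.0359, between 0.00800 and 0.137. The level of Col1a1 (chr11:94936224-94953042) ran from 1.49 RPKM in PIO replicate 1 at 6 h to 62.4 RPKM in GM replicate 2 at 24 h. The next highest were GM replicate 3 at 6 h with 36.0 RPKM and PIO replicate 2 at 24 h with 35.8 RPKM, while the other 21 libraries had at most 19.7 RPKM. Of the 5855 stretches of 76 bases in the Col1a1 transcript, 0% also occurred in transcripts of other genes. Summed osteoblast markers were 463 CPM in GM replicate 2 and 420 CPM in PIO replicate 2, the highest of the 24 h libraries. They reached 1108 CPM in GM replicate 3 and 1509 CPM in CTRL replicate 2 at 6 h, the latter with 19.7 RPKM of Col1a1. Their part in the level of Col1a1 was not tested.

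**Figure D2:**
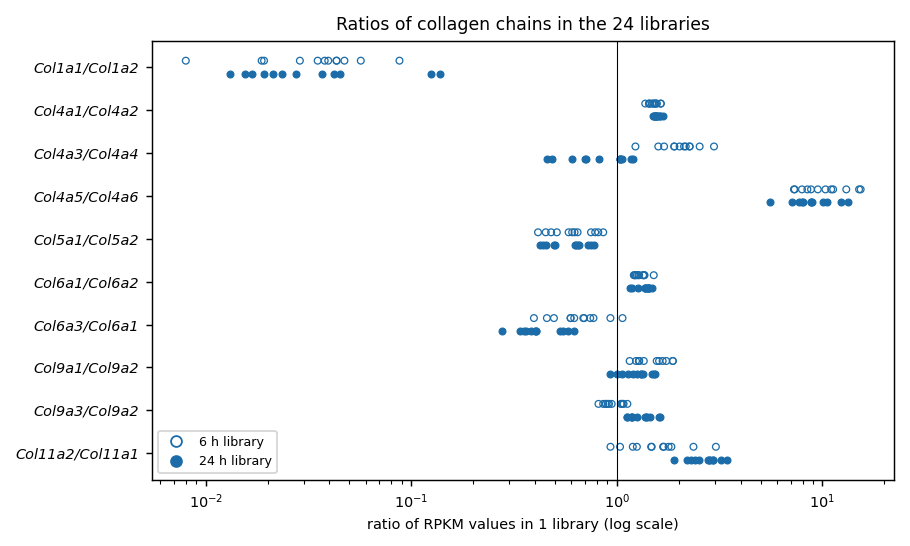
Ratio of RPKM for 10 pairs of collagen chains, 1 point per library on a log scale, open for 6 h and filled for 24 h. Col4a1/Col4a2 keeps within 1.37 to 1.67, Col4a3/Col4a4 falls without overlap from 6 h (1.23 to 2.97) to 24 h (0.459 to 1.20), and Col1a1/Col1a2 spans 0.00800 to 0.137.

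Several ratios differed with time in culture. Col4a3 to Col4a4 had a median of 2.07 at 6 h (1.23 to 2.97) and 0.925 at 24 h (0.459 to 1.20), and the 12 libraries of one time did not overlap the 12 of the other. Col9a3 to Col9a2 had medians of 0.930 at 6 h (0.814 to 1.12) and 1.31 at 24 h (1.12 to 1.61), which just met. For Col11a2 to Col11a1 the medians were 1.58 at 6 h and 2.80 at 24 h, and for Col6a3 to Col6a1 they were 0.654 and 0.402, with overlap in each case. The lowest Col11a2 to Col11a1 ratios at 6 h were those of the GC-shifted libraries. These were PIO replicate 2 (0.931) and PIO+GM replicates 2 and 3 (1.195 and 1.04).

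Time in culture was tested with 12 libraries on each side, pioglitazone at each time with 6 and gentamicin at each time with 3. Counts of calls are therefore not comparable between these tests. Between 6 and 24 h, averaged over the 4 treatments, 11 of the 43 members tested rose (31.9% of all genes tested rose) and 7 fell (30.7% of all genes tested fell) by the quasi-likelihood test of edgeR at an adjusted p of 0.05. In both directions together 41.9% of the members and 62.6% of all genes tested were called. Their median log2 change was 0.15, and that of all genes 0.02. With the 3 libraries of low GC-rich levels left out the counts were 9 and 8, beside 5275 and 4950 of all 16786 genes tested, and the median became -0.03 (all genes 0.02).

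The basement membrane chain Col4a3 had the largest change of all 43 members, and its neighbour Col4a4 fell as well. Col4a3 (Entrez 12828, chr1:82586921-82722059) had 3.13, 9.12 and 21.9 RPKM as the lowest, median and highest value of the 12 libraries at 6 h, and 0.404, 1.45 and 5.19 RPKM at 24 h. Only 3 libraries bridged the times: CTRL replicates 1 (3.62) and 3 (5.19) at 24 h lay above CTRL replicate 3 at 6 h (3.13). The log2 change was -2.61 ± 0.36 (SE; edgeR adjusted p = 3.96e-06). Col4a4 (Entrez 12829, chr1:82448419-82587034) had 2.55, 4.72 and 7.37 RPKM at 6 h and 0.7996, 1.70 and 4.45 RPKM at 24 h, with overlap between the times. Its log2 change was -1.40 ± 0.215 (edgeR adjusted p = 1.51e-05), with the same 2 control libraries at 24 h highest. Both calls were kept without any 1 of the 24 libraries. Within treatments the log2 change of Col4a3 was -1.84 in CTRL, which did not pass the test (edgeR adjusted p = 0.0536), and -2.43 in GM, -2.83 in PIO and -3.35 in PIO+GM, which did.

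The other 6 chains of the basement membrane class did not pass the test of time. Col4a5 (0.10), Col4a1 (0.11) and Col4a2 (0.04) had low log2 changes, and Col4a6 had 0.28, Col18a1 0.25 and Col15a1 0.14.

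Of the 8 cartilage-type genes 3 rose and 0 fell (37.5% called, against 62.6% of all genes), and Col27a1 led. Col27a1 (Entrez 373864, chr4:63214009-63334991) had 12.5, 34.0 and 50.2 RPKM as lowest, median and highest at 6 h and 50.5, 67.0 and 75.7 RPKM at 24 h. All 12 libraries at 24 h lay above all 12 at 6 h, and the log2 change was 1.05 ± 0.153 (edgeR adjusted p = 8.33e-06). Col9a3, a chain of the type IX collagen on the fibril surface, had 144, 261 and 478 RPKM at 6 h and 309, 462 and 506 RPKM at 24 h. The times overlapped, and the log2 change was 0.57 ± 0.163 (edgeR adjusted p = 0.00482). Col11a2 had a log2 change of 0.44 and an adjusted p of 0.0419 by edgeR, but lost its call in 16 of the 24 fits that left out 1 library, in the range 0.35 to 0.61. Col2a1 (0.20), Col9a1 (-0.08), Col9a2 (0.15), Col10a1 (-0.57) and Col11a1 (-0.22) did not pass the test.

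Of the fibrillar collagens Col3a1 and Col5a2 rose. Col3a1, the single chain of type III collagen of loose connective tissue, had 111, 185 and 245 RPKM at 6 h and 133, 228 and 464 RPKM at 24 h. Its log2 change was 0.48 ± 0.128 (edgeR adjusted p = 0.003). Col5a2, a chain of the type V collagen that sets fibril width, had 24.7, 36.4 and 47.2 RPKM at 6 h and 34.3, 44.2 and 73.3 RPKM at 24 h, a log2 change of 0.42 ± 0.110 (edgeR adjusted p = 0.00244). The times overlapped for each gene. Col1a1 (0.05), Col1a2 (-0.03), Col5a1 (0.39), Col5a3 (0.08) and Col24a1 (0.20) did not pass.

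Fibril-associated collagens moved both ways. Col16a1 had 17.9, 37.5 and 51.7 RPKM at 6 h and 34.7, 53.5 and 91.9 RPKM at 24 h (log2 change 0.76 ± 0.154). Col12a1 had 8.80, 15.0 and 25.3 RPKM at 6 h and 3.81, 7.15 and 22.7 RPKM at 24 h (log2 change -0.99 ± 0.211). Both passed by edgeR, with adjusted p-values of 0.000269 and 0.000456, and for each the ranges overlapped. Col20a1 also rose (0.33, edgeR), but with the GC trend removed its value was 0.15 and the call was lost (edgeR adjusted p = 0.157). Col19a1, at 0.0377 to 0.377 RPKM close to the lower limit of the data, fell (-1.46).

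Col26a1, a secreted collagen whose function is little known, had 8.82, 19.3 and 28.1 RPKM at 6 h and 23.7, 34.9 and 67.6 RPKM at 24 h. Most libraries were separated by time, and the log2 change was 0.99 ± 0.159 (edgeR adjusted p = 2.44e-05). Col6a6 rose from a low level (0.249, 0.358 and 0.686 RPKM at 6 h, 0.469, 0.954 and 2.17 RPKM at 24 h), with a log2 change of 1.52 ± 0.277 (edgeR adjusted p = 9.89e-05). Col28a1, known from Schwann cells of peripheral nerve, had 0.767, 4.97 and 12.3 RPKM at 6 h and 0.683, 1.73 and 3.85 RPKM at 24 h, a log2 change of -1.51 ± 0.330 (edgeR adjusted p = 0.000563).

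The other 4 calls were Col25a1, Col6a4 and the type VIII chains. Col25a1, a transmembrane collagen of neurons, rose by 0.71 and Col6a4, at a median of 0.0542 RPKM, fell by 1.156 on the log2 scale. Col8a2 rose by 0.66 and Col8a1 fell by 0.37, with edgeR adjusted p-values of 0.0268 and 0.0337. Col8a2 lost its call without replicate 2 at 24 h of any of the 4 treatments (0.53 to 0.58), and Col8a1 lost its call in 8 of the 24 fits without 1 library (-0.36 to -0.24). Col7a1, not called in the full set, passed with the GC trend removed (-0.42, edgeR adjusted p = 0.0034). Without the 3 GC-shifted libraries Col6a4, Col8a2 and Col11a2 no longer passed, and with the GC trend removed Col8a1 (-0.34), Col8a2 (0.40) and Col11a2 (0.20) did not.

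**Figure D3:**
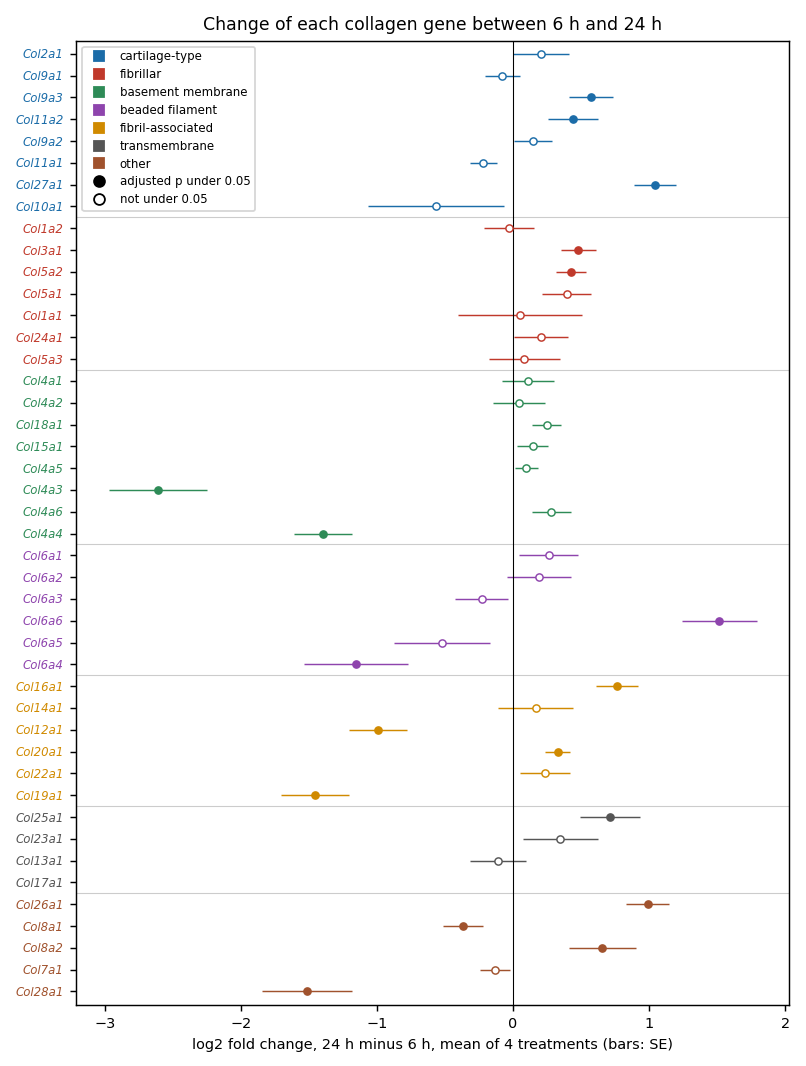
Change from 6 to 24 h of the 43 collagen genes tested, as log2 fold change averaged over the 4 treatments, with 1 standard error on each side. Genes past an adjusted p of 0.05 are filled, with Col4a3 (-2.61) and Col28a1 (-1.51) at the lower end and Col6a6 (1.52) and Col27a1 (1.05) at the upper end.

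Within single treatments fewer collagens passed, each with 3 libraries a time. In CTRL 1 rose (Col27a1) and 1 fell (Col12a1), with 28% of all genes called. In GM 3 rose and 4 fell (24.2% of all genes called), in PIO 4 rose and 3 fell (29%), and in PIO+GM 2 rose and 4 fell (34.6%). Leaving out the 3 GC-shifted libraries, 1 rose and 2 fell in PIO (20.8%), and 1 rose and 5 fell in PIO+GM (25.8%), the latter against 1 library at 6 h. Col26a1 passed in GM (1.23), PIO (0.91) and PIO+GM (1.09), and Col4a3, Col4a4 and Col19a1 fell in the same 3 treatments. These counts rested on few libraries: the count of 2 in CTRL became 0 without CTRL replicate 2 at 6 h or replicate 1 at 24 h and 1 without CTRL replicate 1 at 6 h or replicates 2 or 3 at 24 h. The count of 7 in GM became 1 without GM replicate 2 of either time, 3 without replicate 1 at 6 h and 2 without replicate 1 at 24 h. The count of 7 in PIO became 4 without PIO replicate 2 and 12 without PIO replicate 3 at 6 h. At 6 h PIO replicate 2 was GC-shifted and PIO replicate 3 was not.

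Cell type markers also moved with time, and their part in the changes above was not tested. The counts below stand beside 31.9% of all genes that rose and 30.7% that fell, so that several lists lay near or below these shares. Mesenchyme and fibrocyte markers summed to 963 to 1938 CPM at 6 h and 2070 to 3279 CPM at 24 h, without overlap, and 7 of 10 rose while 1 fell. Macrophage markers went from 43.7 to 111 CPM at 6 h to 57.6 to 196.9 CPM at 24 h, with 6 of 8 higher. Osteoblast markers summed to 218.5 to 1509 CPM at 6 h and 62.6 to 463 CPM at 24 h, and 2 of 7 fell, Dmp1 (-3.56) and Bglap (-3.75). The median of Bglap over all libraries was 0.461 CPM and its lowest 0 CPM. Cartilage markers (4 of 10 higher, 1 lower), hair cell markers (4 of 10 higher, 2 lower), supporting cell markers (5 of 11 higher), endothelial markers (1 of 8 higher, 2 lower) and pericyte markers (4 of 8 in each direction) also changed in part.

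Genes of the collagen pathway were followed in 5 lists, whose counts stand beside the same shares of all genes (31.9% higher, 30.7% lower). Of 23 enzymes and chaperones of collagen folding, 11 rose from 6 to 24 h and 6 fell. Ppib (0.59), P3h4 (0.85) and P3h3 (1.31) rose, and P3h2 (-0.96), Mia3 (-0.26), which helps export procollagen, and the transcription factor Creb3l1 (-1.24) fell. Of 13 genes for procollagen processing and cross-linking, 7 rose and 1 fell: the lysyl oxidases Loxl3 (1.32) and Loxl1 (1.34) and the propeptidase Adamts2 (0.70) rose, and Loxl4 (-2.89) fell. Fibril-binding proteoglycans and matricellular proteins had 4 of 11 higher (Bgn 1.30, Prelp 1.89, Fn1 0.32 among them) and 3 lower (Tnxb -0.57, Omd -0.98, Dcn -0.40). Of 10 collagen receptors tested, Itga10 (0.75), Mrc2 (1.11) and Itga11 (0.61) rose and Itgb1 (-0.59), Adgrg1 (-1.90) and Ddr2 (-0.20) fell. Basement membrane partners had 6 of 12 higher, such as Pxdn (0.84), Agrn (0.64) and Lamb2 (0.48), and 4 lower, such as Lamc1 (-0.50), Lama2 (-0.50) and Lama1 (-0.74). The median log2 change of the lists was 0.31, 0.44, 0.15, 0.04 and 0.25, against 0.02 for all genes. The share called in either direction was 60% to 63.6% in the lists for processing, fibril binding and receptors, near the 62.6% of all genes, and 73.9% and 83.3% in the folding list and the basement membrane partners.

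Pioglitazone at 6 h was compared as the mean of PIO against CTRL and PIO+GM against GM, with 6 libraries on each side. In the full set 1 member rose (9.25% of all genes tested rose) and 8 fell (6.83% of all genes tested fell). The median log2 difference of the 43 members was -0.40 and that of all genes -0.02. Across all genes, log2 differences in this comparison correlated with GC content (Spearman rho -0.56 over 15389 genes, which share the same libraries). With the 3 GC-shifted libraries left out, so that PIO+GM at 6 h was 1 library, 1 member passed (Col20a1, higher), 0.733% of all genes were called, and the median of the members was -0.18. With a replicate block 17 members passed, and 27% of all genes.

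Col6a3, the long chain of type VI collagen (Entrez 12835, chr1:90766860-90844001), had the largest log2 difference of the members at 6 h in the full set. The 3 CTRL libraries had 62.4, 40.6 and 52.8 RPKM and the 3 GM libraries 53.0, 47.8 and 64.8 RPKM. The PIO libraries had 20.0, 14.3 and 25.6 RPKM and the PIO+GM libraries 24.9, 19.3 and 14.2 RPKM. All 6 libraries with pioglitazone lay below all 6 without it. The log2 difference was -1.44 ± 0.277 (edgeR adjusted p = 0.00366) and was kept without any 1 of the 12 libraries. Without the 3 GC-shifted libraries it was -1.17 ± 0.377 and did not pass (edgeR adjusted p = 0.159), with Col28a1 further from 0 (-1.44, edgeR adjusted p = 0.17), and with the GC trend removed it was -1.25 (edgeR adjusted p = 0.0038).

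Col6a1 and Col6a2, the other common chains of type VI, had log2 differences of -1.09 and -1.17 (edgeR adjusted p = 0.0248 and 0.0257). Without pioglitazone Col6a1 had 49.6, 69.3 and 109 RPKM as lowest, median and highest, and with it 19.1, 30.6 and 64.9 RPKM, so that the groups overlapped. For Col6a2 the values were 40.3, 53.5 and 89.9 RPKM without and 13.7, 23.1 and 53.2 RPKM with pioglitazone, again with overlap. Without the 3 GC-shifted libraries the differences were -0.54 and -0.60 and did not pass (edgeR adjusted p = 0.512 and 0.501). With the GC trend removed both passed, at -0.88 and -1.005 (edgeR adjusted p = 0.0253 and 0.0265).

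Col20a1, a fibril-associated collagen (Entrez 73368, chr2:180983323-181017545), rose at 6 h. It had 2.44, 2.38 and 2.46 RPKM in CTRL, 2.67, 2.45 and 2.00 RPKM in GM, 4.79, 2.70 and 3.47 RPKM in PIO and 3.86, 4.06 and 2.96 RPKM in PIO+GM. Every library with pioglitazone was above every library without it, the nearest pair being PIO replicate 2 (2.70) and GM replicate 1 (2.67). The log2 difference was 0.61 ± 0.132 (edgeR adjusted p = 0.00693), and 0.73 ± 0.133 without the 3 GC-shifted libraries (edgeR adjusted p = 0.018). Fitted on the 12 libraries of 6 h alone it was 0.59 and did not pass (edgeR adjusted p = 0.0803), and of the 9 calls in the full set Col6a3 was the 1 that passed there.

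The other 5 members that fell at 6 h in the full set were Col18a1, Col4a6, Col5a3, Col15a1 and Col3a1. Col18a1, the basement membrane collagen that yields endostatin, had 43.7, 63.9 and 92.1 RPKM without and 30.3, 39.6 and 53.2 RPKM with pioglitazone, a log2 difference of -0.66 ± 0.154 (edgeR adjusted p = 0.00979). Col4a6 had 2.70, 4.05 and 5.17 RPKM without and 1.74, 2.26 and 3.81 RPKM with the drug (-0.74, edgeR adjusted p = 0.0215). Col5a3 differed by -1.29, Col15a1 by -0.53 and Col3a1 by -0.54, with overlapping groups in each of the 5 genes. Without the 3 GC-shifted libraries none of these 5 passed in edgeR, with log2 differences of -0.48, -0.48, -0.88, -0.24 and -0.28. With the GC trend removed Col18a1 (-0.26), Col5a3 (-0.92), Col15a1 (-0.27) and Col3a1 (-0.43) did not pass. Apart from Col6a3, Col18a1 and Col20a1, each call at 6 h was lost in 5 or more of the 12 fits without 1 library. The count of 9 became 3 without CTRL replicate 1, PIO+GM replicate 2 or PIO+GM replicate 3, and 4 without GM replicate 3 or PIO replicate 2. It became 18 without PIO+GM replicate 1 and 20 without PIO replicate 3, which were not GC-shifted. Without PIO+GM replicate 1 only GC-shifted libraries remained in PIO+GM at 6 h.

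**Figure D4:**
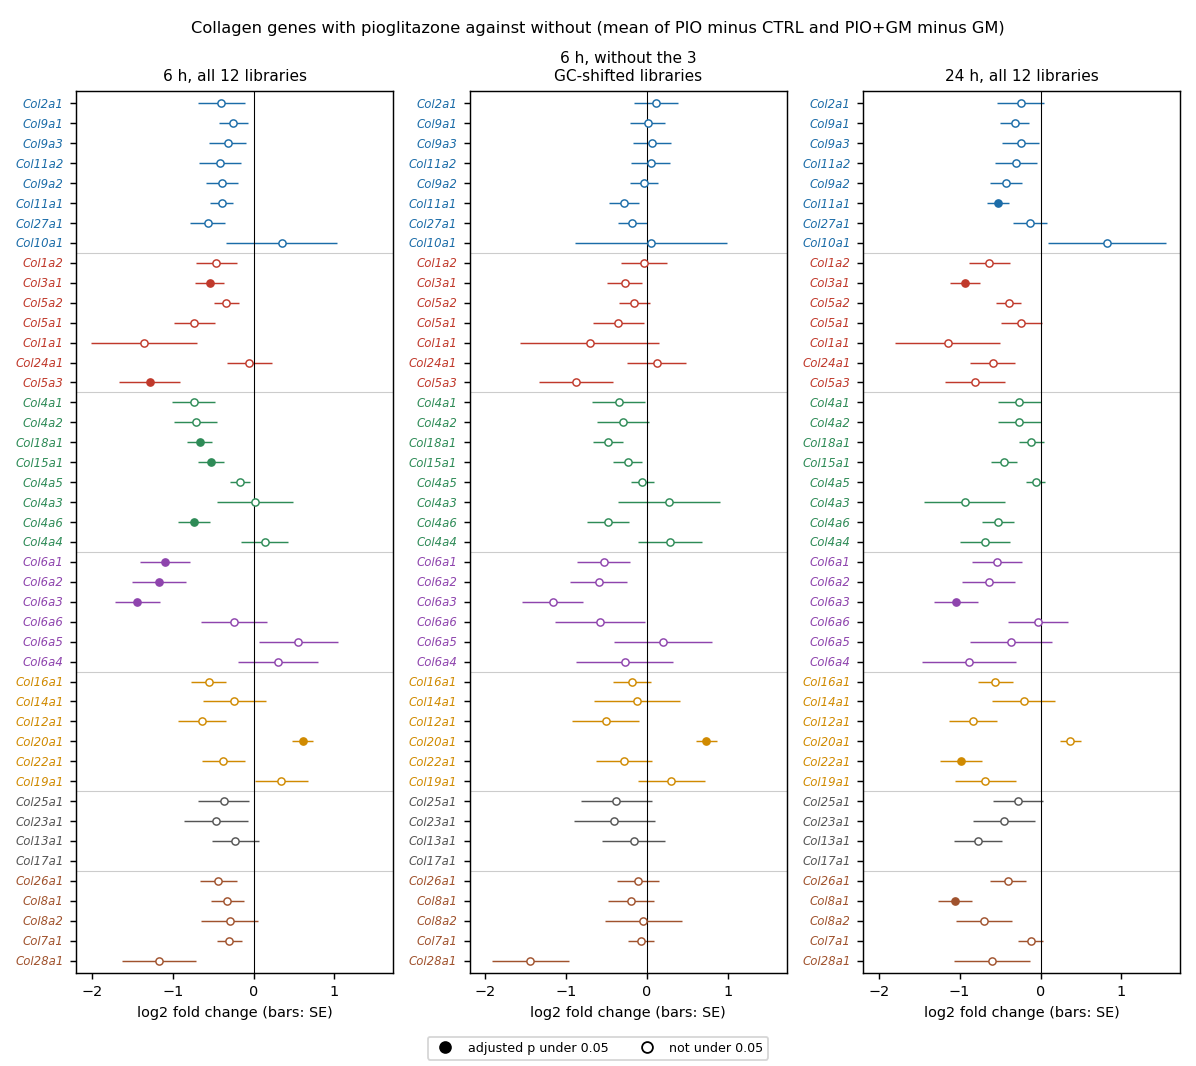
Log2 difference with against without pioglitazone for the 43 collagen genes tested, at 6 h (left), at 6 h without the 3 GC-shifted libraries (middle) and at 24 h (right). Points are log2 fold changes with 1 standard error on each side, filled where the adjusted p is under 0.05, and 9 genes are filled at the left, 1 in the middle (Col20a1) and 5 at the right, among them Col8a1 (-1.06) and Col3a1 (-0.93).

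At 24 h, 0 members rose (0.791% of all genes tested rose) and 5 fell (2% of all genes tested fell). Across the same 15389 genes Spearman rho between the log2 difference and GC content was -0.05. The median log2 difference of the members was -0.45, against -0.0023 for all genes, and 41 of 43 members had a value below 0. Of the 5 calls, those of Col3a1 and Col8a1 were kept without any 1 of the 12 libraries. With a replicate block 8 members fell, with 7.3% of all genes called in either direction.

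Col8a1 (Entrez 12837, chr16:57624256-57754737) encodes a short-chain collagen of vessel walls and of the membrane beneath the corneal endothelium. At 24 h it had 28.7, 28.2 and 27.5 RPKM in CTRL and 32.6, 30.1 and 27.2 RPKM in GM. It had 14.4, 14.3 and 13.3 RPKM in PIO and 16.3, 13.6 and 11.8 RPKM in PIO+GM. The groups were far apart, the highest library with pioglitazone (16.3) lying well below the lowest without it (27.2). The log2 difference was -1.06 ± 0.209 (edgeR adjusted p = 0.0096), and between -1.12 and -1.003 in the fits without 1 library. At 6 h the corresponding ranges were 17.5 to 32.5 RPKM with and 19.1 to 46.4 RPKM without pioglitazone, and the difference did not pass.

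Col3a1 (Entrez 12825, chr1:45311538-45349706) had 293, 389 and 256 RPKM in CTRL and 383, 464 and 236 RPKM in GM at 24 h. It had 144.5, 219.5 and 198 RPKM in PIO and 183, 180.4 and 133 RPKM in PIO+GM. All 6 libraries with the drug (at most 219.5 RPKM) lay below all 6 without it (at least 236.4 RPKM). The log2 difference was -0.93 ± 0.182 (edgeR adjusted p = 0.00863), and between -1.05 and -0.82 without 1 library.

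Col6a3 was again lower with pioglitazone at 24 h. The lowest, median and highest values were 21.6, 40.0 and 65.4 RPKM without and 11.5, 17.4 and 31.9 RPKM with the drug. PIO replicate 2 (31.9) and PIO+GM replicate 2 (25.7) lay within the range of the libraries without pioglitazone. The log2 difference was -1.05 ± 0.274 (edgeR adjusted p = 0.0434). Col11a1, which sets the width of cartilage fibrils, had 134.5, 172 and 204 RPKM without and 90.3, 124 and 136 RPKM with pioglitazone, a log2 difference of -0.53 ± 0.139 (edgeR adjusted p = 0.0454). Col22a1, a collagen of tissue junctions, had 0.718, 0.792 and 1.12 RPKM without and 0.245, 0.347 and 0.892 RPKM with it, a log2 difference of -0.98 ± 0.258 (edgeR adjusted p = 0.0437).

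These last 3 calls were close to the threshold. Col11a1 and Col22a1 lost it in 10 and Col6a3 in 9 of the 12 fits without 1 library, in which log2 differences ran from -0.59 to -0.45, -1.31 to -0.82 and -1.25 to -0.87. Fitted on the 12 libraries of 24 h alone Col6a3 and Col22a1 did not pass (edgeR adjusted p = 0.0675 and 0.0644). With a replicate block, a pairing that the labels do not give, Col6a3, Col11a1 and Col22a1 passed (edgeR adjusted p = 0.00387, 0.00827 and 0.0287). The count of 5 became 2 without CTRL replicate 1 or 3, GM replicate 1, PIO replicate 1 or 3 or PIO+GM replicate 1. It became 3 without CTRL replicate 2, GM replicate 2 or 3, or PIO+GM replicate 2 or 3.

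**Figure D5:**
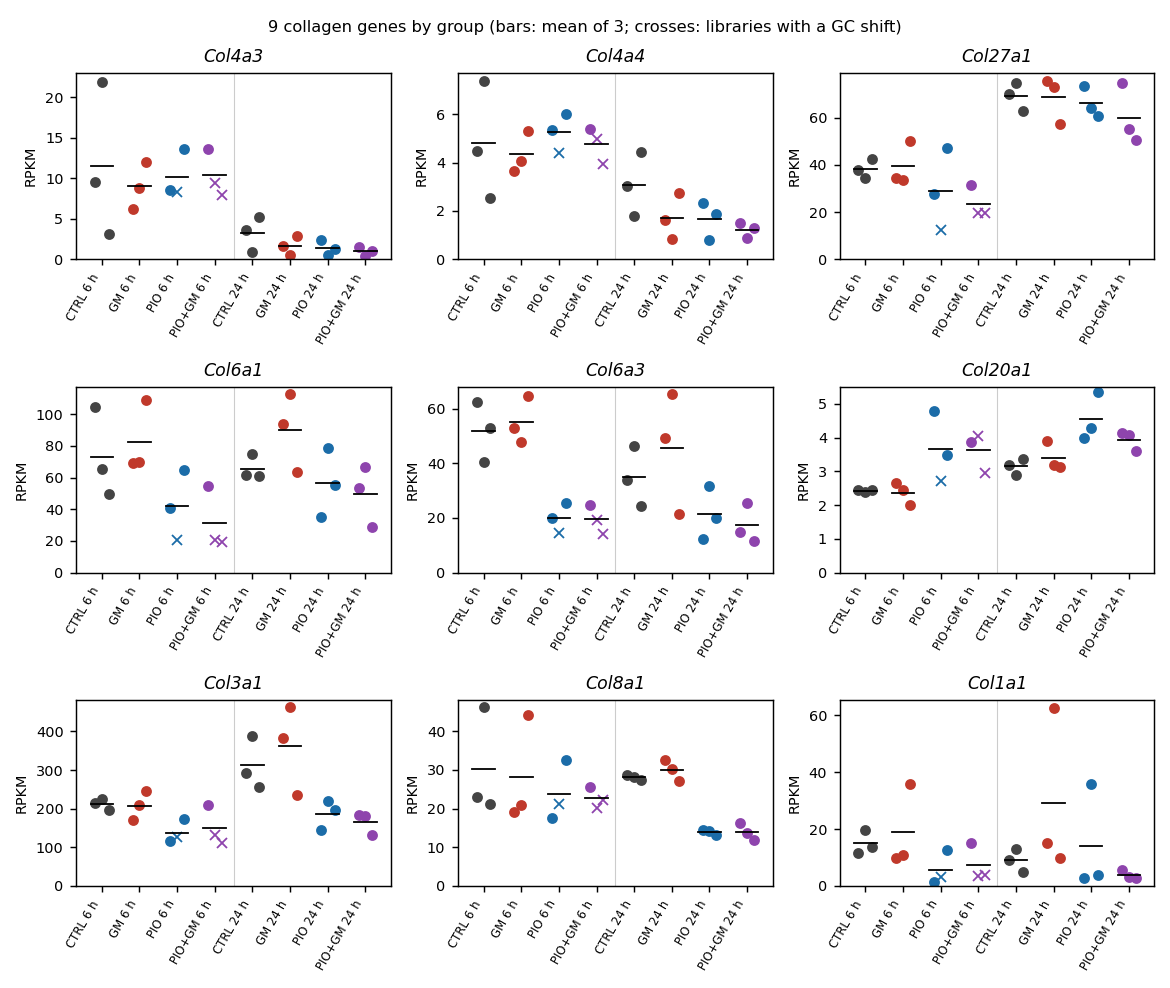
RPKM of 9 collagen genes in each of the 24 libraries, by treatment and time, with 1 point per library, bars for the mean of 3 and crosses for the GC-shifted libraries. At 24 h the 6 libraries with pioglitazone lie at 11.8 to 16.3 RPKM for Col8a1, below the 27.2 to 32.6 RPKM of the 6 without it.

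The separate pairs of groups, with 3 libraries each, gave no collagen past the threshold in the quasi-likelihood test of edgeR with all 24 libraries and no replicate block, while other settings called some. For PIO against CTRL the count was 0 at 6 h (0.337% of all genes called) and 0 at 24 h (0.153%), and for PIO+GM against GM 0 at 6 h (1.32%) and 0 at 24 h (0.11%). At an unadjusted p under 0.05 the counts were 7, 5, 9 and 13, beside 2479, 1621, 4087 and 1219 of all 16317 genes. DESeq2 called 1, 0, 6 and 4 at its adjusted p, and 2.51%, 0.969%, 9.21% and 0.647% of all genes. In edgeR with a replicate block the counts were 1, 0, 6 and 3, with 2.27%, 1.48%, 12.2% and 0.601% of all genes called. The comparison of PIO+GM with GM at 6 h gave 13 calls without PIO+GM replicate 1, which left only replicates 2 and 3, both GC-shifted. The log2 difference of Col8a1 at 24 h was -1.01 for PIO against CTRL and -1.11 for PIO+GM against GM. For Col3a1 at 24 h these were -0.74 and -1.13, for Col6a3 at 6 h -1.38 and -1.50, and for Col20a1 at 6 h 0.59 and 0.62. These 4 genes were picked on the average of the 2 pairs, so that a shared direction is no separate support.

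No collagen gene passed the test for gentamicin alone. Against CTRL, 0 members passed in edgeR at 6 h (0% of all genes called) and 0 at 24 h (0.0123%). At an unadjusted p under 0.05 the counts were 0 and 0, beside 243 and 272 of all 16317 genes, and DESeq2 called 0 and 0 members. The median log2 difference of the members was -0.03 at 6 h and 0.12 at 24 h. The 2 largest values of the fibrillar and basement membrane classes at 24 h were 1.69 for Col1a1, which was 62.4 RPKM in GM replicate 2 and 15.2 and 9.87 RPKM in the others, and -0.94 for Col4a3. The GM and PIO comparisons share the CTRL libraries.

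The differences between effects were tested directly, and 0 members passed in each. The pioglitazone effect by time (0.00613% of all genes called), by gentamicin at 6 h (0%) and at 24 h (0%), and the gentamicin effect by time (0%) had 2, 0, 1 and 0 members at an unadjusted p under 0.05 in edgeR, beside 1653, 293, 197 and 125 of all 16317 genes. DESeq2 was not run for them. The 1 at 24 h was Col1a1 (-3.58, edgeR adjusted p = 1), whose level in GM replicate 2 is given above. The 2 of the pioglitazone effect by time were Col18a1, with -0.66 at 6 h and a difference of 0.55 between the times, and Col8a1, with a difference of -0.73 (edgeR adjusted p = 0.476 for each). An effect of pioglitazone that differed between the times was not shown for any collagen.

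Some partners of the collagens were lower with pioglitazone. At 6 h, where 6.83% of all genes fell and 9.25% rose, 4 of the 23 folding genes fell, such as Plod3 (-0.69), Fkbp10 (-0.66) and P4ha3 (-0.66), and Mia2 rose (2.00). Of the processing genes 4 of 13 fell, among them the collagen propeptidase Adamts14 (-1.10), the enhancer of C-propeptide cleavage Pcolce (-0.76) and Loxl4 (-1.24). Of the fibril-binding genes Tnxb (-1.26), Thbs2 (-1.39) and Fn1 (-0.43) fell, of the receptors Adgrg1 (-1.13) and Ddr1 (-0.46), and of the basement membrane partners the laminin chains Lamb2 (-0.54), Lama5 (-0.71) and Lama4 (-0.72). Without the 3 GC-shifted libraries 0 genes of these 5 lists passed in edgeR, and 4, 3, 3, 2 and 0 had an unadjusted p under 0.05, beside 2287 of all 16786 genes tested. With the GC trend removed 2, 4, 3, 0 and 1 genes fell, beside 799 of all 16317, and 1 folding gene rose.

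At 24 h, where 2% of all genes fell and 0.791% rose, 3 of 13 processing genes fell, Pcolce (-1.10), Adamts14 (-0.73) and the lysyl oxidase Lox (-0.79). Pcolce had 70.4 to 84.9 CPM in CTRL, 80.4 to 104 CPM in GM, 34.0 to 52.2 CPM in PIO and 30.4 to 43.7 CPM in PIO+GM, with no overlap between libraries with and without the drug. Of 11 fibril-binding genes 4 fell: periostin (Postn, -1.75), fibromodulin (Fmod, -1.71), decorin (Dcn, -0.88) and osteomodulin (Omd, -1.95). With the GC trend removed 7 of the 11 fell, beside 539 of all 16317 genes. Postn, a matricellular protein of collagen-rich tissue, had 170.5 to 233 CPM in the 6 libraries without and 47.7 to 64.3 CPM in the 6 with pioglitazone, again without overlap. Of the 23 folding genes, 10 receptors and 12 basement membrane partners 0 passed in edgeR at 24 h, and 3, 2 and 0 had an unadjusted p under 0.05, beside 2750 of all 16317 genes. With the GC trend removed 1, 1 and 0 of these fell.

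Cell type markers moved with pioglitazone as well, and their part in the collagen differences was not tested. At 24 h (2% of all genes fell) the cartilage marker Acan fell (-1.62), with 101 to 370 CPM in the 6 libraries without and 62.2 to 116 CPM in the 6 with the drug, a slight overlap. Summed cartilage markers did not overlap: they ran from 877 to 1231 CPM in the 6 libraries without and from 550.5 to 841 CPM in the 6 with pioglitazone, although 1 of the 10 tested passed. Of the other lists at 24 h, 2 of 10 mesenchyme and 3 of 8 pericyte and smooth muscle markers fell, including Acta2 (-1.69), and 0 of the osteoblast, endothelial, hair cell, supporting cell and macrophage markers passed in edgeR (2, 0, 1, 0 and 0 at an unadjusted p under 0.05). Mesenchyme markers summed to 2224 to 3040 CPM in CTRL, 2315 to 2965 CPM in GM, 2070 to 2858 CPM in PIO and 2170 to 3279 CPM in PIO+GM, with overlap. At 6 h, in the full set (6.83% of all genes fell), 1 of 10 cartilage, 3 of 10 mesenchyme, 1 of 8 endothelial, 2 of 8 pericyte and 5 of 10 hair cell markers fell, and 1 pericyte marker rose. After leaving out the 3 GC-shifted libraries 1 cartilage, 1 mesenchyme, 0 endothelial, 1 pericyte and 0 hair cell markers fell in edgeR, beside 57 of all 16786 genes tested. At an unadjusted p under 0.05 the counts were 3, 3, 1, 1 and 5, beside 2287 of all genes. With the GC trend removed 1, 3, 1, 1 and 2 of these markers fell, beside 799 of all 16317 genes.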

How the data were processed

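RNA from 24 pools of 6 organ of Corti explants was sequenced by the authors from a stranded total RNA kit as single reads of 76 bases. Reads were aligned to the mouse genome (mm10 per the processing notes) with STAR, and reads starting in annotated exons were counted per Entrez gene. The deposited values are raw counts per gene, and whether strand was used is not given in the sources used here. Of 24454 identifiers, 80 had no symbol.

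Groups came from the sample labels. Counts were tested with edgeR 4.0.16 (R 4.3.3, limma 3.58.1): TMM scaling, filterByExpr (16317 genes, 43 members), 1 model with a mean for each of 8 groups, quasi-likelihood F-test, Benjamini-Hochberg adjustment over all genes tested, threshold 0.05. The common biological coefficient of variation was 0.2251. Log2 fold changes and their standard errors come from this model. RPKM used the table's gene lengths and TMM-scaled totals. Sequences and annotation came from RefSeq, GRCm38.p6. DESeq2 1.42.0, other scalings, filters, replicate blocks, a GC correction and fits without each library were alternatives. Leaving out the 3 libraries with a GC shift over 0.6 was chosen after seeing the data. Scripts were tested on simulated counts. Python 3.11.15, pandas 2.3.3, NumPy 2.4.6 and matplotlib 3.10.9 were used for tables and figures.

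Members and gene lists were chosen with earlier results of these data known. Members past the threshold in a comparison (at most 12 each, smallest p first), the 2 highest of each class and those in chain ratios are described in full, with at most 3 pathway genes per list and direction. Marker genes and Omd, the 4th fibril-binding call at 24 h, were named after their values were seen. Results of 1 marker list are not reported here.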

Additional observations from a re-analysis of the deposited data

How the results depend on the processing

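Counts of collagen genes past the threshold were recomputed under each alternative, and 184 of 254 recomputed values kept within 1.5 times. Of 927 values for members called in the main fit for time or averaged pioglitazone, 0 changed direction, 789 kept their call and 138 lost it. Some members without a call did change sign. For time with the GC trend removed, Col2a1, Col9a2 and Col18a1 had -0.03, -0.12 and -0.03, against values above 0 in the main fit. Time averaged over treatments (18) gave 15 to 20 under all settings, with 47.6% to 67.1% of all genes called, and 16 to 21 without 1 library. Time in CTRL (2) gave 4 with DESeq2 size factors or at least 10 counts per library, 1 with no filter, 5 with the likelihood ratio test, DESeq2 or only the groups compared, and 6 with the GC trend removed. The share of all genes called was 28%, and in that order 27.9%, 30.8%, 16.2%, 29%, 28.6%, 27.4% and 35.9%. Time in GM (7, with 24.2% of all genes) gave 4 with no filter (13.9%) and 11 with the likelihood ratio test (26%) or DESeq2 (27.1%). Time in PIO (7) gave 3 with only the groups compared and 3 without the 3 GC-shifted libraries. Pioglitazone at 6 h (9) gave 14 with DESeq2, 1 with only the groups compared and 1 without the GC-shifted libraries. At 24 h (5) it gave 2 with no filter and 8 with the GC trend removed (all genes 2.79%, 1.15% and 6.48% called). PIO against CTRL at 6 h (0) gave 1 with the likelihood ratio test, DESeq2, the GC trend removed or without the GC-shifted libraries, and at 24 h 1 with only the groups compared. PIO+GM against GM gave 1 (at least 10 counts), 4 (likelihood ratio), 6 (DESeq2) and 1 (GC trend removed) at 6 h, and 1, 4 and 1 at 24 h for the last 3. In that order 2.58%, 4.11%, 9.21% and 0.766% of all genes were called at 6 h, and 0.441%, 0.647% and 0.27% at 24 h. At 6 h the 1 with at least 10 counts was lower and the 1 with the GC trend removed was higher. Without 1 library the counts were 0 to 3 for time in CTRL, 1 to 9 in GM, 4 to 12 in PIO, 5 to 9 in PIO+GM, 3 to 20 for pioglitazone at 6 h, 2 to 5 at 24 h, 0 to 13 for PIO+GM against GM at 6 h, and 0 to 0 for the other pairs. The share of all genes called often moved with these counts: for pioglitazone at 6 h it was 16.1%, 22.1% with DESeq2, 0.907% with only the groups compared and 0.733% without the GC-shifted libraries. For time in PIO it was 29%, and 10.1% with only the groups compared. For PIO against CTRL at 6 h it was 0.337%, 1.29% with the likelihood ratio test, 2.51% with DESeq2 and 1.23% with the GC trend removed. The 1 member called there was lower with the likelihood ratio test and DESeq2 and higher with the GC trend removed. For PIO against CTRL at 24 h the share was 0.153%, and 0.0522% with only the groups compared. The cause was not tested where a count moved.

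The replicate block gave 20 for time averaged, 5 in CTRL, 17 for pioglitazone at 6 h, 8 at 24 h, 1 for PIO against CTRL at 6 h, and 6 and 3 for PIO+GM against GM at 6 and 24 h. The shares of all genes called were 63.4%, 30%, 27%, 7.3%, 2.27%, 12.2% and 0.601%. With the GC trend also removed the counts were 17, 7, 12, 11, 3, 4 and 3, beside 67.1%, 38.7%, 18.3%, 13.3%, 5.14%, 4.5% and 1.31% of all genes. Same-numbered libraries had a mean correlation of deviations of 0.113 at 6 h (9 of 18 pairs over 0.1, libraries of other numbers -0.05) and 0.38 at 24 h (15 of 18 pairs, other numbers -0.18), so the numbers may mark a pairing at 24 h, a hint from the data that the labels do not give. At 24 h all 3 pairs were over 0.1 for CTRL with PIO and for CTRL with GM, where the block gave 0 and 0 calls as without it, and 2 of 3 for GM with PIO+GM. The common coefficient of variation went from 0.2251 to 0.1773 with the block.

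Fits that left a group with 2 libraries, or with 1 (PIO+GM at 6 h without the GC-shifted libraries), share the spread of all groups. Genes below 1 RPKM (7 members) rest on few counts, and 3 libraries a group limit the separate pairs.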

Other observations

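At 24 h replicate 2 of each of the 4 treatments had the lowest Col4a3 of its group, 0.859 RPKM in CTRL, 0.502 in GM, 0.567 in PIO and 0.404 in PIO+GM. The same 4 libraries had the highest Col6a6 of their groups, 1.59, 1.69, 2.17 and 2.05 RPKM. Supporting cell markers summed to 4843 to 7408 CPM in these 4 libraries and to 8721 to 10780 CPM in the other 8 libraries at 24 h, and macrophage markers to 130 to 197 CPM and 57.6 to 105 CPM. As given above, most of the supporting cell sum came by median from Tectb and Tecta. The labels give no batch, and the libraries were picked out after their values were seen.

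At 6 h the library with the lowest supporting cell sum of each treatment had that treatment's highest Col4a3. These were CTRL replicate 2 (4009 CPM, 21.9 RPKM), GM replicate 3 (4613 CPM, 12.0 RPKM), PIO replicate 3 (5603 CPM, 13.6 RPKM) and PIO+GM replicate 1 (4287 CPM, 13.6 RPKM). This is a description of 4 libraries, with no test.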
